A study of Mus musculus with 3 samples.

Results

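Interferon-state macrophages are lung lavage cells that carry RNA of interferon-induced genes together with Lyz2, the lysozyme gene of macrophages and other myeloid cells. They were chosen by counts in single cells, among cells in which 200 or more genes were seen and mitochondrial genes gave no more than 20% of the unique molecular identifiers (UMIs, 1 for each captured RNA molecule). Lyz2 had to give at least 0.5% of a cell's UMIs. In addition, at least 5 UMIs had to come from Rsad2, Ifit1, Ifit2, Ifit3 and Isg15, with at least 3 of these 5 genes present. The rule found 190 cells among 25276 Lyz2-gated cells and 42888 kept cells. The values of the gate genes chose the cells, so these values are given as a description.

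The study profiled lavage cells of mice 14 days after bleomycin, a drug that damages the lung and leads to fibrosis in mice, was given into the airways. There was 1 library each from wild-type mice treated with GW5074 (WT GW5074), Clec7a knockout mice given DMSO (KO DMSO) and wild-type mice given DMSO (WT DMSO). GW5074 is a small-molecule kinase inhibitor, DMSO is its solvent, and Clec7a encodes Dectin-1, a receptor for fungal β-glucan. All 3 groups received bleomycin, were kept free of specific pathogens, and had the lavage fluid of a group's mice combined before cells positive for CD11b or CD11c were sorted. The number of mice, their strain, age and sex, the doses and the deleted exons of Clec7a are not given in the sources used here. Each group is thus 1 pool and 1 library, a group's effect and that of its pool or run cannot be told apart, and no p-value was computed. Each interval is a 95% interval for counting error alone.

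Interferons bind receptors that signal through JAK kinases to transcription factors such as STAT2 and IRF9, which turn on a broad set of antiviral genes. Among the products are sensors of foreign nucleic acid, enzymes of the OAS family that act on viral RNA, the ubiquitin-like protein ISG15 and chemokines such as CXCL10. Resident alveolar macrophages and macrophages that arise from recruited monocytes, which accumulate after bleomycin, can both respond to interferon.

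Many interferon-induced promoters hold an interferon-stimulated response element, whose core is spelled GAAA, then any 2 bases (NN), then GAAA. The 250 bases before the start sites of 6 genes that were high in the interferon-state cells and hold this spelling, and of Irf7, which does not, are printed to show its place. The sequences are from RefSeq (GRCm38.p6), run 5′ to 3′ on the gene's strand, and have each match on either strand in capitals. They are Isg15 (chr4:156200819-156201068, minus strand), Ifit1 (chr19:34640639-34640888, plus strand), Ifit3 (chr19:34583279-34583528, plus strand), Rsad2 (chr12:26456453-26456702, minus strand), Oas3 (chr5:120777660-120777909, minus strand), Cxcl10 (chr5:92348890-92349139, minus strand) and Irf7 (chr7:141266425-141266674, minus strand).
Isg15: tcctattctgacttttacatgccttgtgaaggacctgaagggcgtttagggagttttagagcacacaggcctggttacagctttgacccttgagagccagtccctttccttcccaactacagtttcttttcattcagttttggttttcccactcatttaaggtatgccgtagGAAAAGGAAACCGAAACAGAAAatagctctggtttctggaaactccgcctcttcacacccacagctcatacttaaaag
Ifit1: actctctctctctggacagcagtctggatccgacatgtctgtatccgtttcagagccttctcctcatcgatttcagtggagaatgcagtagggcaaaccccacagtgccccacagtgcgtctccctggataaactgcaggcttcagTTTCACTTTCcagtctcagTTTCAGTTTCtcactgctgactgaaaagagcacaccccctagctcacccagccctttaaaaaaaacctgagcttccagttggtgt
Ifit3: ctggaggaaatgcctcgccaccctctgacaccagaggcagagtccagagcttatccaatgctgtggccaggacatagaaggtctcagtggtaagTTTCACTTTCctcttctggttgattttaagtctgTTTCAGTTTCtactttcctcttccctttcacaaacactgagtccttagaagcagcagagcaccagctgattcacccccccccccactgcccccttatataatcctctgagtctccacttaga
Rsad2: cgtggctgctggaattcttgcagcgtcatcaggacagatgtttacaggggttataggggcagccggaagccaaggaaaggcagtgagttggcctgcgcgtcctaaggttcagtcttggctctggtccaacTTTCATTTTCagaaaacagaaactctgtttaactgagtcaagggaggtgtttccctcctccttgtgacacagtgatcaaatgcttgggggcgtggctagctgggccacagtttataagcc
Oas3: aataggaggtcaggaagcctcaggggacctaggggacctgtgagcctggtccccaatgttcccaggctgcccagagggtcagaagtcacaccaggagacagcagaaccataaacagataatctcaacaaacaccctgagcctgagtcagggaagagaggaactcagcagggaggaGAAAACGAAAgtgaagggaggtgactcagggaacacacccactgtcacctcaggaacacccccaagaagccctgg
Cxcl10: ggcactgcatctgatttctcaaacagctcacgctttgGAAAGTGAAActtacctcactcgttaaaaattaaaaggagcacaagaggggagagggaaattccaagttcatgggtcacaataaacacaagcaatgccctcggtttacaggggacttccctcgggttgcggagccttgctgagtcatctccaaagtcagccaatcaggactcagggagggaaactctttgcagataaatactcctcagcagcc
Irf7: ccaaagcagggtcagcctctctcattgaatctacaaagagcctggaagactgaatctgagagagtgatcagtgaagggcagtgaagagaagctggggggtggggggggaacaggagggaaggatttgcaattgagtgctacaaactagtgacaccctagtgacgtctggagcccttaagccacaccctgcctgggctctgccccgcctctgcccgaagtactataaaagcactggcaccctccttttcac

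The Isg15 window held 3 matches in a row, each overlapping the next. Ifit1 and Ifit3 held 2 matches each on the strand opposite to the gene, and the other 3 genes with a match held 1. In windows of 300 bases, from 250 before to 50 after a start site, the element on either strand occurred in 1079 of 27025 genes with a window (3.99%). It occurred in 4 of the 5 gate genes and not in the windows of Ifit2. A match describes the letters of the window and says nothing on binding.

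The interferon state was rare and took a like share of Lyz2-gated cells in the 3 libraries. It held 97 of 12632 Lyz2-gated cells in WT GW5074 (0.768%, exact Clopper-Pearson interval 0.623 to 0.936), 57 of 8029 in KO DMSO (0.710%, interval 0.538 to 0.919) and 36 of 4615 in WT DMSO (0.780%, interval 0.547 to 1.08). The 3 intervals overlapped, so a difference in share was not detectable with these numbers of cells. Of all kept cells the state made up 0.545% in WT GW5074, 0.490% in KO DMSO and 0.268% in WT DMSO, where fewer kept cells passed the Lyz2 gate (4615 of 13454, against 12632 of 17792 in WT GW5074 and 8029 of 11642 in KO DMSO).

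The interferon-state cells were deeper than the cells they were chosen from. Their median depth was 3794 UMIs in WT GW5074, 3631 in KO DMSO and 5284.5 in WT DMSO, against 2601, 3214 and 3846 UMIs in the other Lyz2-gated cells of these libraries in that order. A gate of a fixed number of UMIs is passed more easily by a deeper cell. With every cell thinned to 2000 UMIs and shallower cells left out, the shares under the same gate were 0.497% in WT GW5074, 0.465% in KO DMSO and 0.314% in WT DMSO. Thinned to 1000 UMIs with a gate of 3 UMIs of 2 genes, they were 0.462% in WT GW5074, 0.454% in KO DMSO and 0.457% in WT DMSO.

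**Figure D1:**
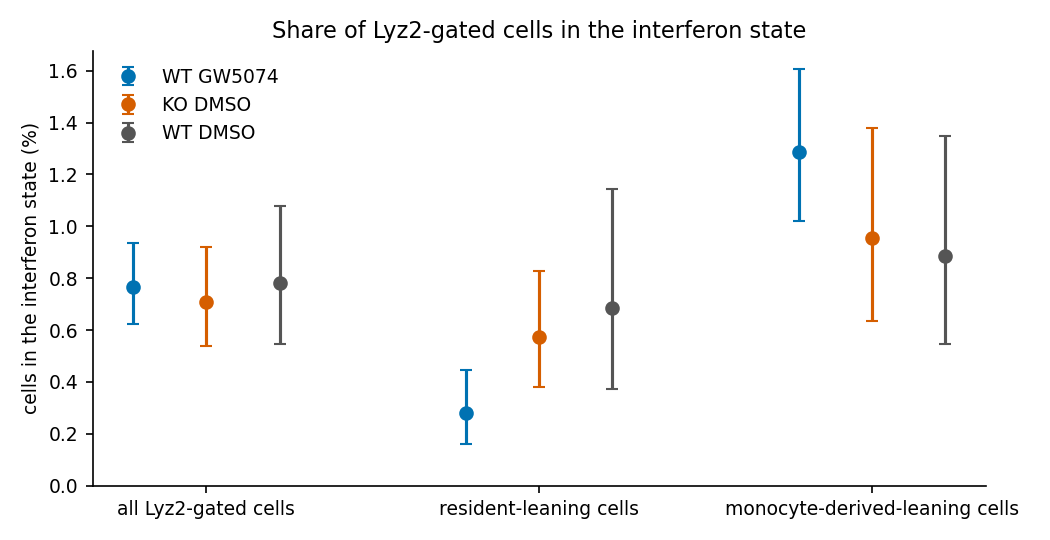
The share of cells in the interferon state (%, vertical axis) is shown for all Lyz2-gated cells and for those that lean to resident or to monocyte-derived markers, with WT GW5074, KO DMSO and WT DMSO as points and exact 95% binomial intervals as bars. The 3 libraries sit between 0.710% and 0.780% for all Lyz2-gated cells, and WT GW5074 is at 0.279% among resident-leaning and 1.29% among monocyte-derived-leaning cells.

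Most interferon-state cells carried UMIs of 4 or 5 of the gate genes. All 5 genes were present in 28 of 97 cells in WT GW5074, 15 of 57 in KO DMSO and 15 of 36 in WT DMSO, and 4 were present in 43, 16 and 7 cells. The median cell had 8 gate UMIs in WT GW5074, 9 in KO DMSO and 9.5 in WT DMSO, and the highest had 63, 60 and 56. At the threshold, 13, 7 and 6 cells had exactly 5 gate UMIs, while 24, 12 and 4 cells with 4 gate UMIs of at least 3 genes stayed just outside. Among the other Lyz2-gated cells, 92.9% in WT GW5074, 92.7% in KO DMSO and 91.4% in WT DMSO had no gate UMI.

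Isg15 had 639 CPM (UMIs scaled to a total of 1000000) in interferon-state cells of WT GW5074, 818 in KO DMSO and 794 in WT DMSO, against 18.2, 18.4 and 15.2 CPM in other Lyz2-gated cells. Rsad2, which encodes the antiviral enzyme viperin, had 690, 667 and 636 CPM, against 6.27, 4.03 and 5.69 CPM. Ifit3, of the same antiviral family as Ifit1 and Ifit2, had 391, 562 and 483 CPM, against 3.37, 2.77 and 2.14 CPM. Ifit3 and Ifit1 have near-identical neighbours on chromosome 19, Ifit3b and Ifit1bl1, so the division of reads between the copies is uncertain. These are the genes that defined the cells, and their gap between the groups is a result of the rule.

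Nearly all of the cells carried monocyte-derived macrophage markers, most carried resident ones too, and many also carried UMIs of other cell types. At least 3 UMIs of 14 monocyte-derived macrophage markers were found in 96 of 97 interferon-state cells in WT GW5074, 57 of 57 in KO DMSO and 36 of 36 in WT DMSO, against 92.9%, 90.2% and 95.6% of other Lyz2-gated cells. Of kept cells that met neither the Lyz2 nor the interferon gate, 39.3%, 43.4% and 31.4% had as many. This count alone thus cannot settle the macrophage label. At least 3 UMIs of 14 resident alveolar macrophage markers were found in 68, 50 and 32 interferon-state cells (70.1%, 87.7% and 88.9%). Other Lyz2-gated cells had shares of 75.7%, 85.6% and 75.3%. The summed level of 7 monocyte markers was lower in interferon-state cells of all 3 libraries (log2 ratios -0.46, -0.63 and -0.21). At least 3 UMIs of markers of migratory or plasmacytoid dendritic cells, T cells, B cells or natural killer cells were found in 24 of 97 cells in WT GW5074 (24.7%), 7 of 57 in KO DMSO (12.3%) and 14 of 36 in WT DMSO (38.9%). In other Lyz2-gated cells this share was 8.78% in WT GW5074, 10.1% in KO DMSO and 12.6% in WT DMSO. Migratory dendritic cell markers made up most of it, since 18, 7 and 8 interferon-state cells had at least 3 of their UMIs. All 8 of these markers had UMIs in interferon-state cells of WT GW5074 and WT DMSO, and Nudt17 was at 0 in KO DMSO. Without all such cells the shares in the interferon state were 0.634% in WT GW5074, 0.693% in KO DMSO and 0.547% in WT DMSO. Of the genes compared below, 99 were then higher in all 3 libraries, 86 of them among the 102 reported, and Prkar2b was lower.

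Markers of conventional dendritic cells and neutrophils were found in the interferon state and in other Lyz2-gated cells. At least 3 UMIs of neutrophil markers were found in 8 of 97 cells in WT GW5074 (8.25%), 7 of 57 in KO DMSO (12.3%) and 19 of 36 in WT DMSO (52.8%), against 9.76%, 13.1% and 47.5% of other Lyz2-gated cells. For type 2 conventional dendritic cells it was 37, 17 and 21 cells (38.1%, 29.8% and 58.3%), against 38.8%, 28.4% and 54.2%. For type 1 it was 21, 8 and 10 cells (21.6%, 14.0% and 27.8%), against 17.2%, 16.97% and 27.0%. The part of dendritic cell UMIs of these types in the results that follow was not tested.

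Beyond the gate, the interferon-state cells gave a larger share of their UMIs to other interferon-induced genes. The gate genes belong to the same program, and the lists were chosen with earlier results of these data known. The values of this paragraph thus describe the picked cells and are no test of them. The share of a cell's UMIs given by 79 interferon-induced genes outside the gate (nucleic acid sensors, OAS and RNA-binding effectors, other antiviral effectors and the ISG15 pathway) had a median of 1.53% in WT GW5074, 1.83% in KO DMSO and 1.71% in WT DMSO. In other Lyz2-gated cells the medians were 0.375%, 0.362% and 0.355%. Of the interferon-state cells, 89 of 97 in WT GW5074, 54 of 57 in KO DMSO and 34 of 36 in WT DMSO lay above the 95th percentile of the other cells of their library. The overlap was partial in the other direction too, since 84, 19 and 11 cells outside the gate (0.670%, 0.238% and 0.240%) lay above the median interferon-state cell.

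**Figure D2:**
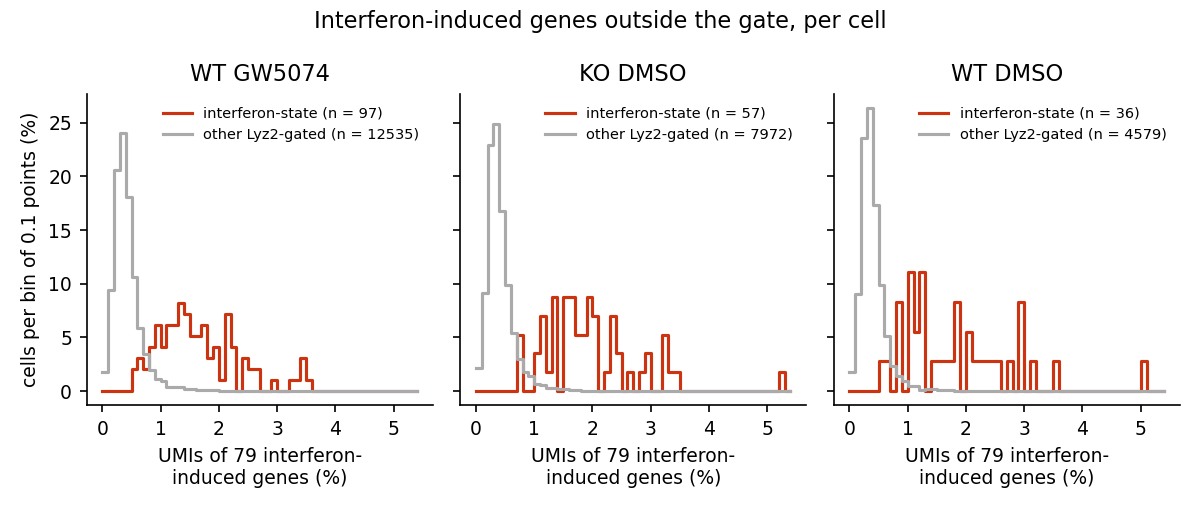
The share of a cell's UMIs in 79 interferon-induced genes outside the gate (%, horizontal axis) is plotted against the percentage of cells per bin, for interferon-state cells and other Lyz2-gated cells of each library. The interferon-state cells spread around medians of 1.53% to 1.83%, and the other cells form a peak with medians of 0.355% to 0.375%.

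Genes were compared by the UMIs summed over the interferon-state cells of a library, set against those of its other Lyz2-gated cells. A gene counted as higher or lower when the ratio of CPM was at least 2-fold and its exact conditional binomial interval excluded 1, in all 3 libraries. To be compared, a gene had to reach 50 CPM in either sum and 100 UMIs over both, in each library. Of 3358 genes measured at this level, 102 were higher (3.04%) and none was lower (0%) in all 3 libraries. In single libraries, 171 genes were higher in WT GW5074 (4.52%), 225 in KO DMSO (5.97%) and 195 in WT DMSO (4.99%), while 81 (2.14%), 119 (3.16%) and 126 (3.22%) were lower. Of the 102 genes, 69 were under 50 CPM in the other cells of every library, so they passed the level only through the interferon-state cells. Because the cells were picked on 5 genes of the program in the same libraries, these counts describe the picked cells and are no test of them.

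The naming rule left out predicted genes, and the 20 highest of the rest were at least 7-fold higher in every library, 18 of them in the gene lists. Above these 20 stood A330040F15Rik, named after its values were seen, with log2 ratios of 4.58, 4.54 and 4.69. Usp18, whose product removes ISG15 from proteins and dampens the interferon receptor, had 184 CPM in interferon-state cells of WT GW5074, 178 in KO DMSO and 124 in WT DMSO, against 8.64, 5.93 and 6.25 CPM in other Lyz2-gated cells. Its log2 ratios were 4.41 (interval 4.02 to 4.79), 4.91 (4.36 to 5.42) and 4.31 (3.64 to 4.93). UMIs of Usp18 were found in 41 of 97, 24 of 57 and 16 of 36 interferon-state cells, a minority in each library. Irf7, the transcription factor that amplifies type I interferon responses, had 238 CPM in WT GW5074, 315 in KO DMSO and 268 in WT DMSO, against 12.6, 15.4 and 8.80 CPM (log2 ratios 4.24, 4.35 and 4.93).

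Rtp4, an antiviral chaperone-like protein, had 192 CPM in WT GW5074, 251 in KO DMSO and 225 in WT DMSO, against 14.0, 14.7 and 10.3 CPM. Slfn5, a member of the Schlafen family, was among the most abundant, with 565, 813 and 646 CPM against 49.7, 41.6 and 38.1 CPM, and was seen in 76, 46 and 34 cells. Ifitm3, which blocks the entry of enveloped viruses, had 483, 800 and 483 CPM against 53.9, 57.2 and 58.8 CPM. Rnf213, a large ubiquitin ligase, had 621, 608 and 603 CPM against 78.0, 67.6 and 61.4 CPM. Each of these genes was higher in every library, and the intervals of the log2 ratios overlapped between all libraries for Usp18 and Irf7. For Slfn5 the interval of WT GW5074 lay below those of KO DMSO and WT DMSO. For Ifitm3 that of KO DMSO lay above those of WT GW5074 and WT DMSO. The other genes of the 20 were Ms4a4c, Oasl2, Oas3, Phf11b, Ifi211, Phf11d, Ddx60, Ifi209, Ifi205, Herc6, Xaf1, Gbp2, Pde7b and Oas2. Pde7b, a phosphodiesterase that degrades cyclic AMP, was in no list and had 360, 379 and 306 CPM against 45.5, 43.5 and 34.6 CPM.

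**Figure D3:**
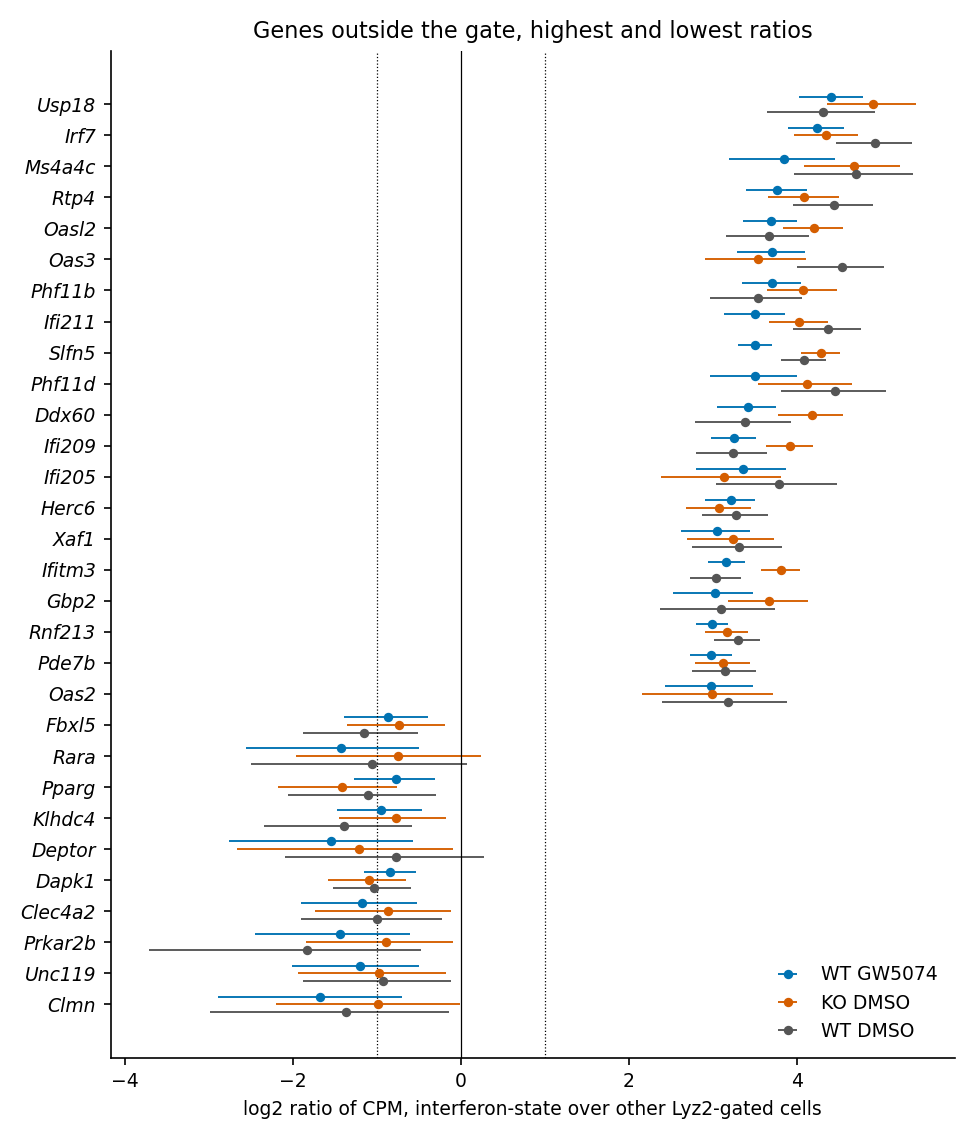
The log2 ratio of CPM in interferon-state cells over other Lyz2-gated cells (horizontal axis) is shown for the 20 named genes with the highest ratios and the 10 with the lowest, with 1 point per library and exact 95% intervals as bars. Dotted lines mark 2-fold. Usp18 and Irf7 lie above 4 in every library, while Pparg lies at -0.77 in WT GW5074, -1.42 in KO DMSO and -1.10 in WT DMSO.

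Of 18 measured sensors of nucleic acid, 12 passed the level filter and 10 were higher in all 3 libraries. Over all 3358 genes at this level, 3.04% were higher, to be set beside this and each list count that follows. Members under 50 CPM in other cells passed the level only through the interferon-state cells, so these list counts are a description. Ifih1, the gene of the double-stranded RNA sensor MDA5, had 230 CPM in WT GW5074, 197 in KO DMSO and 239 in WT DMSO, against 32.0, 36.7 and 30.7 CPM. Ddx58, which encodes the RNA sensor RIG-I, had 189, 251 and 177 CPM against 35.0, 35.4 and 29.8 CPM, and Zbp1, a sensor of Z-form nucleic acid, had 125, 123 and 182 CPM against 21.3, 18.6 and 17.7 CPM. These 3 sensors were about 5-fold to 10-fold higher, with the largest ratio that of Zbp1 in WT DMSO. The other 7 were Ifi204, Mndal, Ifi203, Ifi205, Ifi207, Ifi209 and Ifi211, DNA-binding proteins of the Ifi200 family whose similar sequences make the division of reads among them uncertain. Aim2, the inflammasome sensor of DNA, had 130, 160 and 144 CPM against 94.1, 81.0 and 95.8 CPM and was not called, and the endosomal RNA receptor Tlr7 had 61.3, 59.4 and 76.6 CPM against 38.8, 45.8 and 39.1 CPM and was not called either.

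Of 14 measured OAS and RNA-binding effectors, 9 passed the level filter and 7 were higher. Oas3 had 153 CPM in WT GW5074, 123 in KO DMSO and 196 in WT DMSO, against 11.7, 10.6 and 8.44 CPM, and Oasl2 had 238, 352 and 191 CPM against 18.4, 19.1 and 15.0 CPM. Both belong to a family that senses double-stranded RNA, and both were more than 11-fold higher in every library.

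Among 35 other antiviral effectors, 24 passed the level filter and 18 were higher. Their levels outside the state differed widely, from under 15 CPM for Rtp4 to over 200 CPM for Bst2. Bst2, the gene of the virus-tethering protein tetherin, had 726 CPM in interferon-state cells of WT GW5074, 868 in KO DMSO and 660 in WT DMSO, against 225, 206 and 218 CPM. Ifi27l2a was more abundant still, with 1224, 1673 and 1220 CPM against 514, 508 and 404 CPM. Of 12 members of the ISG15 and ubiquitin pathway, 10 passed the filter and 9 were higher, among them Herc6, a ligase that attaches ISG15 in mice, with 271, 279 and 292 CPM against 29.2, 33.0 and 30.1 CPM. Usp25 was the member that passed and was not called, with 202, 247 and 201 CPM against 109, 104 and 102 CPM.

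Over members with at least 20 UMIs in the other cells, a filter that does not use the interferon-state cells, the median log2 ratio of the sensors was 2.43 in WT GW5074, 2.73 in KO DMSO and 2.96 in WT DMSO. It was 2.75, 2.71 and 3.25 for OAS and RNA-binding effectors, 1.72, 2.29 and 2.20 for the other effectors, and 1.95, 2.21 and 2.23 for the ISG15 pathway. Over all 11825 genes under that filter it was -0.16, -0.24 and -0.17. Under that filter, 12 of 17 sensors and 10 of 12 OAS and RNA-binding effectors were at least 2-fold higher in all 3 libraries. So were 22 of 32 other effectors and 11 of 12 ISG15 pathway members, against 190 of all 11825 genes, whatever their intervals. The 3 libraries gave medians within about 0.6 of each other for each list.

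Some transcription factors of the signalling chain were called higher. Of 20 JAK-STAT and IRF members, 14 passed the level filter and 7 were higher, among them Stat2, Irf7, Irf1, Nmi, Sp100 and Sp110. Stat2 had 235 CPM in WT GW5074, 279 in KO DMSO and 316 in WT DMSO, against 57.9, 53.7 and 49.7 CPM. Irf9, its partner in the interferon response, had 125, 96.0 and 86.1 CPM against 47.4, 39.9 and 46.1 CPM and missed 2-fold in WT DMSO. Irf5 also passed the filter and was not called.

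The receptor gene Ifnar1 had 43.4 CPM in WT GW5074, 45.7 in KO DMSO and 19.1 in WT DMSO, against 27.1, 22.3 and 28.5 CPM, and was below the level filter, so it could not be called. Ifnar2 had 125, 114 and 172 CPM against 90.1, 103 and 92.7 CPM, and Ifngr1, a chain of the interferon γ receptor, had 123, 110 and 148 CPM against 156, 159 and 201 CPM. Ifngr2, its other chain, had 115, 82.3 and 105 CPM against 106, 90.9 and 111 CPM. Ifnar2, Ifngr1 and Ifngr2 passed the filter and were not called, nor was the kinase gene Jak1 (169, 142 and 172 CPM against 183, 187 and 184 CPM).

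No UMI of 12 measured interferon genes was found in any of the 190 interferon-state cells. A count of 0 among their 819111 UMIs allows up to 3.66 CPM for each gene, and up to 7.67 CPM in WT GW5074, 13.7 in KO DMSO and 14.4 in WT DMSO taken alone. Among all kept cells, Ifng had 5 UMIs in WT GW5074, 4 in KO DMSO and 6 in WT DMSO, Ifnk had 4, 2 and 0, Ifnz had 1, 0 and 0, and Ifnb1 had 0, 0 and 1. The other 8 genes, among them 5 of the interferon α family and both interferon λ genes, had no UMI in any kept cell. An expressing cell type present in few cells, or outside the sort, was not detectable at this depth.

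Genes of the interferon γ axis were measured thinly. Of 23 members, 8 passed the level filter and Gbp2, Gbp3, Gbp7, Irgm1 and Irgm2 were higher, all of them GTPases that act against intracellular pathogens. Gbp2 had 107 CPM in WT GW5074, 197 in KO DMSO and 100 in WT DMSO, against 13.2, 15.4 and 11.7 CPM. Cxcl9, a chemokine gene that responds mainly to interferon γ, had 28.1, 146 and 52.6 CPM against 3.92, 5.09 and 8.59 CPM and was below the filter. Its KO DMSO value came from 32 UMIs in 6 cells.

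Chemokine genes were sparse across the cells, with high counts in a few. Only Ccl2, the monocyte-attracting chemokine, was higher among the 7 of 20 members that passed the filter, with 125 CPM in WT GW5074, 210 in KO DMSO and 115 in WT DMSO against 14.5, 18.5 and 23.6 CPM. Cxcl10 encodes a ligand of the chemokine receptor CXCR3. It missed the filter of 100 UMIs in at least 1 library because the other cells had almost none. It had 220, 274 and 210.5 CPM, against 2.29, 2.43 and 1.17 CPM, with log2 ratios of 6.58 (interval 6.13 to 7.04), 6.82 (6.28 to 7.35) and 7.49 (6.73 to 8.29). Its UMIs lay in 30 of 97, 14 of 57 and 9 of 36 interferon-state cells, and a single cell gave 25.6%, 23.3% and 34.1% of them.

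Ccl12, a further monocyte chemokine gene, had 63.9 CPM in WT GW5074, 228.5 in KO DMSO and 43.1 in WT DMSO against 5.55, 4.56 and 4.27 CPM. In KO DMSO 1 cell gave 62.0% of its UMIs, so the high value there rests on that cell. Cmpk2, a mitochondrial nucleotide kinase gene next to Rsad2 on chromosome 12, had 217, 187 and 210.5 CPM against 3.51, 2.24 and 2.19 CPM, and Oasl1 had 143, 183 and 196 CPM against 5.77, 3.84 and 2.95 CPM. Both were below the filter for the same reason as Cxcl10. Cxcl9, Cxcl10, Ccl12, Cmpk2 and Oasl1 were named after their values were seen.

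The interferon-state cells also varied among themselves. They were split by the share of their gate genes, values that the rule used, so the levels on each side are a description. The upper cells were shallower, with median depths of 2929 UMIs in WT GW5074, 3400 in KO DMSO and 4830.5 in WT DMSO against 4288, 3896 and 6890 in the lower ones. Cells whose gate genes took more than 0.248% of their UMIs had 469 CPM of Cxcl10 in WT GW5074, 442 in KO DMSO and 522 in WT DMSO, against 83.1, 87.0 and 0 CPM in cells below that share. Usp18 had 274, 217 and 166 CPM in the upper cells against 134, 135 and 96.2 CPM in the lower ones. Cmpk2 had 332, 295 and 451 CPM against 154, 67.6 and 48.1 CPM. Others went the other way in a single library, with Isg20 at 36.1 CPM in the upper and 59.3 in the lower cells of WT GW5074. In KO DMSO Bst2 had 832 against 908 CPM, Ifi27l2a 1630 against 1720 CPM and Ccl12 130 against 338 CPM. As given above, a single cell gave most of the Ccl12 UMIs in KO DMSO. Each of these genes was higher in the upper cells of the remaining libraries. For Isg20 it was 130 against 67.6 CPM in KO DMSO and 166 against 24.0 CPM in WT DMSO.

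Of 19 members of antigen processing for MHC class I, 15 passed the filter and 4 were higher, namely Tap1, Psmb9, Nlrc5 and H2-T22. The share over all genes compared was 3.04%. Tap1, a chain of the peptide transporter, had 174 CPM in WT GW5074, 197 in KO DMSO and 172 in WT DMSO against 50.1, 35.1 and 45.7 CPM. Psmb9, a subunit of the immunoproteasome, had 240, 256 and 359 CPM against 103, 79.8 and 108 CPM. Nlrc5, the activator of class I genes, had 138, 160 and 172 CPM against 48.0, 42.4 and 43.9 CPM, and H2-T22 encodes a nonclassical heavy chain. Nlrc5 in every library, and Tap1 in KO DMSO and WT DMSO, passed the level only through the interferon-state cells. H2-K1, a classical class I heavy chain, had 1551, 1499 and 1282 CPM against 1213, 1067 and 1089 CPM and was not called. None of 6 MHC class II genes was called, and H2-Ab1 had 1605, 1161 and 1249 CPM against 992, 1046 and 992 CPM.

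In 6 lists of other macrophage programs no member was called. Since 3.04% of all genes were higher and 0% lower, such counts are close to those over all genes and say nothing particular on these lists. None of 20 scar macrophage genes, 18 of which passed the filter, was called. Spp1, the osteopontin gene that marks profibrotic macrophages, had 8679 CPM in WT GW5074, 8752 in KO DMSO and 11646 in WT DMSO, against 7660, 6384 and 8632 CPM. None of 21 inflammatory cytokine and death ligand genes was called, with 5 past the filter, and Il1b had 56.2, 50.3 and 129 CPM against 81.5, 68.3 and 155 CPM. Over the 18 members of this list with at least 20 UMIs in the other cells, the median log2 ratio was 0.79, 0.90 and 0.27. Of these 18, 5 had ratios of at least 2-fold in all 3 libraries, whatever their intervals, against 190 of 11825 genes under that filter. The other lists of this paragraph held 0 such members. None of 17 lipid handling, 18 cholesterol synthesis, 13 immediate early and 7 Dectin-1 pathway genes was called, with 12, 10, 6 and 4 past the filter.

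Of the 102 higher genes, 40 were in no gene or marker list. They included Fcgr1, the high-affinity receptor for IgG, with 266 CPM in WT GW5074, 329 in KO DMSO and 225 in WT DMSO against 79.99, 75.7 and 77.3 CPM. Pnp, an enzyme of purine salvage whose near copy Pnp2 could share its reads, had 516, 777 and 718 CPM against 164, 199 and 160 CPM. Ly6e, an interferon-induced surface protein, had 1158, 1257 and 1024 CPM against 535, 494 and 430 CPM. The RNA AW112010 had 549, 772 and 579 CPM against 130, 121 and 146 CPM. Znfx1, an RNA-binding helicase, had 312, 366 and 311 CPM against 49.5, 47.7 and 45.0 CPM. These genes were named after their values were seen, and each was at least 2-fold higher in every library.

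The genes with the lowest ratios missed 2-fold in at least 1 library. Pparg, a transcription factor that alveolar macrophages need, had 97.1 CPM in WT GW5074, 82.3 in KO DMSO and 57.4 in WT DMSO against 165, 220 and 123 CPM. Other cells were also weighted to the depth and resident marker share of the interferon-state cells, a share that itself counts Pparg. Against these its log2 ratios were -0.003, -1.08 and -0.99. Dapk1, a death-associated kinase gene, had 225, 183 and 191 CPM against 402, 391 and 392 CPM. The other 8 were Clmn, Unc119, Prkar2b, Clec4a2, Deptor, Klhdc4, Rara and Fbxl5. In 2 of the 3 libraries, 27 genes were called lower.

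Some of the higher genes were neighbours in the genome. Of the 102, 33 (32.4%) had another within 100000 bases, against 78 of 3255 other measured genes (2.40%) that had a higher gene that near. Positions are from GENCODE M21 (mm10). A run of 7 genes of the Ifi200 family spanned chr1:173630917-174031810, 4 Schlafen genes (Slfn5, Slfn9, Slfn8 and Slfn1) spanned chr11:82951349-83122670, and Gbp7, Gbp3 and Gbp2 lay at chr3:142530342-142638008. Parp14, Dtx3l and Parp9, tied to ADP-ribosylation and ubiquitin, lay at chr16:35832874-35972605, and Oas2 and Oas3 at chr5:120730333-120777661. Neighbours in such families are copies of each other, so shared reads could tie their values together.

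The response element shown in the printed sequences was found in 36 of the 84 higher genes that had a promoter window (42.9%), and in 104 of 2622 other measured genes (3.97%). Among the 20 highest genes, 17 had a window and 8 held it (47.1%). Irf7 and Oasl2, both over 12-fold higher, did not hold these letters within 250 bases before to 50 after the start. The related STAT spelling TTCNNNGAA, which reads alike on both strands and can overlap a match of the first, was found in 13 of the 84 (15.5%). It was found in 197 of 2622 other measured genes (7.51%) and in 9.55% of all genes with a window. Of the 17 highest genes with a window, 1 held it (5.88%).

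Resident and monocyte-derived markers were set against each other by their summed levels and by cell. The summed level of 14 resident alveolar macrophage markers was 1986 CPM in WT GW5074, 2769 in KO DMSO and 2316 in WT DMSO, against 2943, 3654 and 2751 CPM. That of 14 monocyte-derived markers was 22663, 19551 and 23101 CPM, against 16370, 14716 and 17233 CPM. The resident sum was lower and the monocyte-derived sum higher in all 3 libraries. Apoe and Spp1 gave most of the monocyte-derived UMIs, so cells were classed by the lists without them. In WT DMSO a single cell gave 40.7% of the Apoe UMIs, and a single cell gave 26.6% of those of Spp1. The monocyte-derived sum of WT DMSO thus leans on few cells.

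By those lists, 17 of 97 interferon-state cells in WT GW5074 (17.5%, interval 10.6 to 26.6) had more resident than monocyte-derived UMIs, against 48.5% of the other cells. In KO DMSO it was 28 of 57 cells (49.1%, interval 35.6 to 62.7) against 60.8%, and in WT DMSO 14 of 36 (38.9%, interval 23.1 to 56.5) against 44.4%. By these lists the interval lay below the share of the other cells in WT GW5074, and in KO DMSO and WT DMSO it contained that share. With the whole lists, the setting planned first, the share was 8.25% in WT GW5074 (interval 3.63 to 15.6) and 15.8% in KO DMSO (7.48 to 27.9). In WT DMSO it was 5.56% (0.68 to 18.7). The other cells had 21.4%, 30.7% and 15.1%. By the whole lists the interval thus lay below the other cells in WT GW5074 and KO DMSO and contained their share in WT DMSO. The lists without Apoe and Spp1 were chosen after seeing the data. The class is a range of a balance and no type: 11, 10 and 6 interferon-state cells had a resident share between 0.4 and 0.6.

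**Figure D4:**
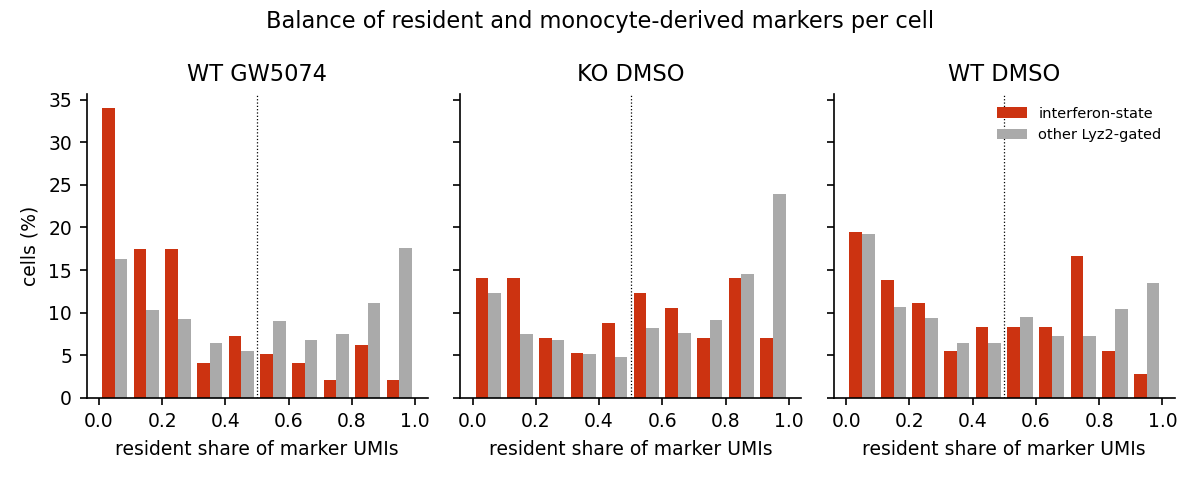
The share of a cell's marker UMIs that came from resident alveolar macrophage markers (horizontal axis, Apoe and Spp1 left out) is plotted against the percentage of cells, for interferon-state cells and other Lyz2-gated cells of each library, with a dotted line at 0.5. Interferon-state cells of WT GW5074 lie mostly left of the line, with 17.5% to its right, while those of KO DMSO lie on both sides, with 49.1% to its right.

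Turned round, the state took 17 of 6102 resident-leaning cells in WT GW5074 (0.279%, interval 0.162 to 0.446), 28 of 4875 in KO DMSO (0.574%, 0.382 to 0.829) and 14 of 2046 in WT DMSO (0.684%, 0.375 to 1.15). Among monocyte-derived-leaning cells it took 78 of 6056 (1.29%, 1.02 to 1.60), 28 of 2932 (0.955%, 0.635 to 1.38) and 21 of 2376 (0.884%, 0.548 to 1.35). The 2 classes had intervals apart from each other in WT GW5074 and overlapping ones in KO DMSO and WT DMSO. Monocyte-derived-leaning cells were deeper, with medians of 2797 UMIs in WT GW5074, 3607 in KO DMSO and 4097 in WT DMSO against 2498.5, 3049 and 3746.5 in resident-leaning cells. With cells thinned to 2000 UMIs the monocyte-derived-leaning share was 0.786% in WT GW5074, 0.580% in KO DMSO and 0.246% in WT DMSO, against 0.192%, 0.380% and 0.354% in resident-leaning cells. In WT DMSO the order of the 2 classes turned round there, on 5 and 6 cells. Thinned to 1000 UMIs with a gate of 3 UMIs of 2 genes, the monocyte-derived-leaning share was 0.745% in WT GW5074, 0.596% in KO DMSO and 0.480% in WT DMSO, against 0.157%, 0.385% and 0.407% in resident-leaning cells.

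Ms4a6c, a monocyte-derived marker of the MS4A family that lies next to Ms4a4c, was the member of either list that was called, with 478 CPM in WT GW5074, 754 in KO DMSO and 536 in WT DMSO against 187, 232 and 203 CPM. Its UMIs count among those that class a cell, so its higher level adds to the monocyte-derived side of interferon-state cells. The part of Ms4a6c in the shares of the 2 classes was not tested. C1qc, a chain of the complement protein C1q, had 1158, 845 and 861 CPM against 523, 486 and 528 CPM, with log2 ratios of 1.15 (interval 1.01 to 1.28), 0.80 (0.58 to 1.01) and 0.71 (0.49 to 0.92). C1qa and C1qb had ratios of 0.96 and 0.95 in WT GW5074, 0.71 and 0.70 in KO DMSO and 0.53 and 0.56 in WT DMSO. None of the 3 chains passed 2-fold in all 3 libraries. Against other cells weighted to the depth and marker class of the interferon-state cells, a class that itself counts C1qc, the C1qc ratios were 0.41, 0.38 and 0.49.

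Other monocyte-derived markers went the other way. Mmp12, a macrophage elastase, had 133 CPM in WT GW5074, 73.1 in KO DMSO and 33.5 in WT DMSO against 173, 146 and 129 CPM (log2 ratios -0.38, -0.997 and -1.95). Ccr2, the receptor for CCL2, had ratios of -0.13, -0.21 and -0.24, and Cx3cr1, the fractalkine receptor, had 0.17, -1.32 and -0.02. The resident markers were mixed as well. Among those with lower values, Plet1 had 166, 178 and 177 CPM against 339, 384 and 276 CPM, and Siglecf, the receptor that defines resident alveolar macrophages, had 10.2, 4.57 and 28.7 CPM against 24.9, 25.6 and 23.9 CPM, lower in WT GW5074 and KO DMSO alone. Fabp4, a fatty acid binding protein, had ratios of 0.57, 0.01 and -0.57, and Fabp1 had -0.33, 0.47 and 1.20. Cidec, a lipid droplet protein, had ratios of -1.46, -2.06 and 1.60, and Marco, a scavenger receptor, had -0.62, -1.69 and 0.30. Cx3cr1, Siglecf, Fabp1, Cidec and Marco were below the level filter. In interferon-state cells Cidec had 3, 2 and 5 UMIs, Marco 12, 3 and 13, Fabp1 4, 10 and 4, and Siglecf 4, 1 and 6. Whether these ratios differ between libraries was not tested.

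The 20 highest genes were also compared within each class, as a description, since they were chosen on the sum of the same cells. All 20 were at least 2-fold higher in resident-leaning and in monocyte-derived-leaning interferon-state cells of each library, each set against other cells of its class. Their median log2 ratio in resident-leaning cells was 3.38 in WT GW5074, 4.03 in KO DMSO and 4.06 in WT DMSO, and in monocyte-derived-leaning cells 3.15, 3.61 and 3.44.

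Between the groups, Clec7a was the check of the knockout. Interferon-state cells had 283 UMIs of Clec7a in WT GW5074 (723 CPM), 1 in KO DMSO (4.57 CPM) and 112 in WT DMSO (536 CPM). Other Lyz2-gated cells had 770, 13.03 and 684 CPM. The log2 ratio of KO DMSO over WT DMSO in interferon-state cells was -6.87 (interval -12.19 to -4.37), from 1 UMI. The label of the KO DMSO library was met at the 3′ end that is sequenced, which need not hold the deleted exons.

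Groups were compared by the same summed UMIs of interferon-state cells, with a 1.5-fold threshold, an interval that excludes 1, at least 50 CPM in 1 library and 100 UMIs over both. Of 930 genes, 27 were higher (2.9%) and 37 lower (3.98%) in WT GW5074 than in WT DMSO. Of 636 genes, 36 were higher (5.66%) and 31 lower (4.87%) in KO DMSO than in WT DMSO. Both comparisons share the 36 cells of WT DMSO, so a value that is odd there enters both.

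Most interferon-induced genes were not called between groups. Among the members of the sensor, OAS, other antiviral and ISG15 lists that passed the level, 1 of 35 was higher and 2 lower in WT GW5074, and 6 of 24 were higher and none lower in KO DMSO. In KO DMSO these were Mndal, Ifi203 and Ifi209 of the Ifi200 family, Oasl2, Ifitm3 and Lgals3bp. Ifi209 had 544 CPM in KO DMSO against 258 in WT DMSO (log2 ratio 1.07, interval 0.60 to 1.57), and Ifitm3 had 800 against 483 CPM (0.73, 0.37 to 1.09). In other Lyz2-gated cells the log2 ratio was 0.39 for Ifi209 and -0.04 for Ifitm3. In WT GW5074, Ifi211 was lower, with 189 against 301 CPM (-0.67, -1.18 to -0.16), as was Ifitm2, with 176 against 345 CPM (-0.97, -1.46 to -0.47). The counts of these lists in KO DMSO are to be read beside the 5.66% of all genes that were higher there. Interferon-state cells had median depths of 3794 UMIs in WT GW5074, 3631 in KO DMSO and 5284.5 in WT DMSO. A fixed number of gate UMIs is a larger share of a shallower cell. The part of depth in these ratios of interferon-induced genes was not tested.

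Lgals3bp, a secreted glycoprotein gene that responds to interferon, was called higher in both comparisons. It had 434 CPM in WT GW5074, 407 in KO DMSO and 177 in WT DMSO, with log2 ratios of 1.30 (interval 0.78 to 1.85) and 1.20 (0.63 to 1.79) over WT DMSO. In other Lyz2-gated cells it had 163, 178 and 118 CPM. The WT DMSO level of interferon-state cells was the low one, and the other 2 libraries were close.

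In WT GW5074 the other genes with the highest ratios were Ldlrad4, C3ar1, Ms4a7 and Ubl3. Ldlrad4, an inhibitor of TGF-β signalling, had 227 CPM in WT GW5074 and 137 in KO DMSO, against 86.1 in WT DMSO (1.40, interval 0.66 to 2.22, for WT GW5074). C3ar1, the receptor for complement C3a, had 212 CPM in WT GW5074 and 82.3 in KO DMSO, against 86.1 in WT DMSO (1.30, 0.55 to 2.12, for WT GW5074). Ms4a7, a marker of monocyte-derived macrophages, had 220 against 90.9 CPM (1.27, 0.54 to 2.07). The share of monocyte-derived-leaning cells, a class that counts Ms4a7, was also larger in that library, and its part in the ratio was not tested. In other Lyz2-gated cells these 3 ratios were 0.29, 0.30 and 0.24.

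The lowest ratios in WT GW5074 were those of S100a9, S100a8, Fos, Arg1 and Srgn. S100a8, an alarmin that neutrophils make in large amounts, had 225 CPM in WT GW5074, 215 in KO DMSO and 2435 in WT DMSO, and S100a9, its partner, had 97.1, 4.57 and 1359 CPM. Outside the state, S100a8 had 264, 294 and 1696 CPM in Lyz2-gated cells and S100a9 76.0, 54.98 and 926 CPM. The log2 ratios there were -2.68 and -2.53 for S100a8 and -3.61 and -4.07 for S100a9, so both genes were lower than in WT DMSO there too. Of the S100a9 UMIs in WT DMSO 35.2% came from 1 cell. The summed level of 11 neutrophil markers in interferon-state cells was 417 CPM in WT GW5074, 283 in KO DMSO and 4153 in WT DMSO, with Ly6g and Retnlg at 0 in all 3 libraries. A stricter neutrophil rule asked for at least 1% of UMIs from S100a8 and S100a9 and at least 2 UMIs of the other markers. It was met by 4 of 36 interferon-state cells in WT DMSO (11.1%), 0 of 97 in WT GW5074 and 0 of 57 in KO DMSO. Among other Lyz2-gated cells, 7.82% met it in WT DMSO, 0.415% in WT GW5074 and 0.401% in KO DMSO. The ratios of S100a8 in interferon-state cells were -3.44 for WT GW5074 and -3.50 for KO DMSO.

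Fos, an immediate early gene, had 102 CPM in WT GW5074 and 302 in KO DMSO, against 287 in WT DMSO (-1.49, -2.10 to -0.89, for WT GW5074). Arg1, the arginase of alternatively activated macrophages, had 107 against 278 CPM (-1.37, -1.98 to -0.77). Srgn, a proteoglycan of secretory granules, had 243 CPM in WT GW5074, 302 in KO DMSO and 569 in WT DMSO. In other Lyz2-gated cells the ratios of Arg1 and Srgn in WT GW5074 over WT DMSO were -1.80 and -1.30, so both were lower there too.

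In KO DMSO the highest ratios after Lgals3bp were those of Cd68, Fcgr3, Sppl2a and Hspa5. Cd68, a lysosomal glycoprotein of macrophages, had 791 CPM in KO DMSO against 354 in WT DMSO (1.16, 0.76 to 1.57). Hspa5, the chaperone BiP of the endoplasmic reticulum, had 992 against 469 CPM (1.08, 0.73 to 1.44), and its ratio in other Lyz2-gated cells was 0.74. Coro1a, an actin-binding protein of leukocytes, had 155 against 383 CPM (-1.30, -1.92 to -0.70). Syk, the kinase that Dectin-1 signals through, had 192 CPM in KO DMSO against 330 in WT DMSO (-0.78, -1.37 to -0.21), with a ratio of -0.10 in other Lyz2-gated cells. Whether the ratios differ between interferon-state and other cells was not tested.

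**Figure D5:**
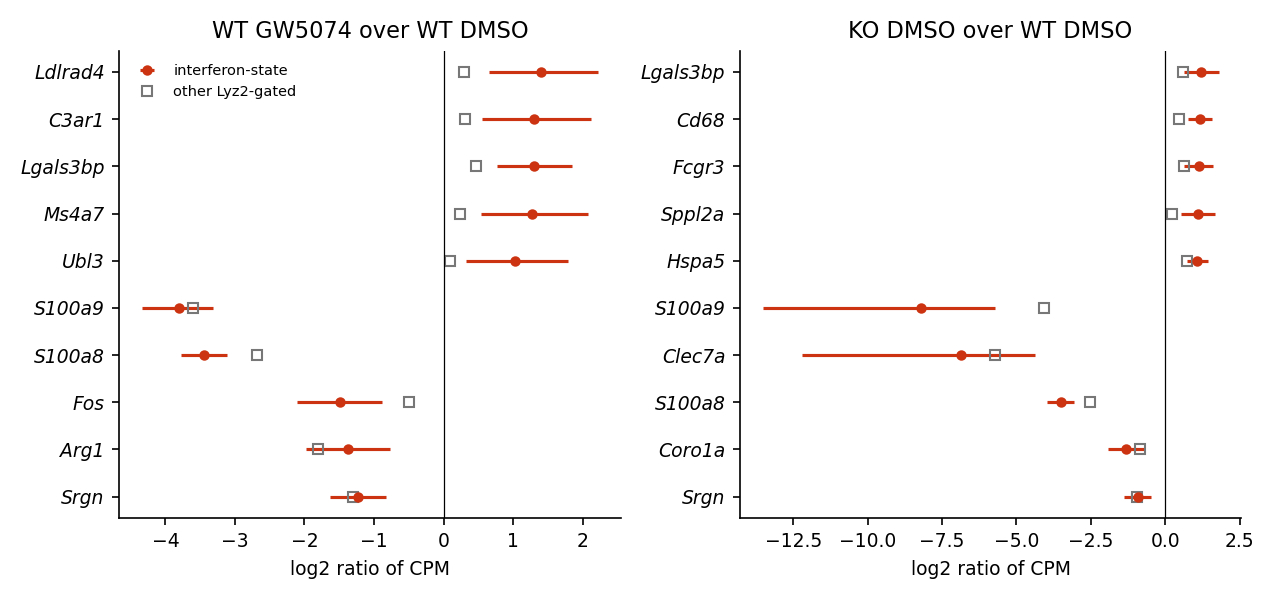
The log2 ratio of CPM over WT DMSO (horizontal axis) is shown for the 5 highest and 5 lowest genes of WT GW5074 (left) and KO DMSO (right), with interferon-state cells as filled points with exact 95% intervals and other Lyz2-gated cells as open squares. Lgals3bp lies at 1.30 and 1.20 in interferon-state cells, and S100a8 at -3.44 and -3.50.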

How the data were processed

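The deposited matrices hold raw counts of UMIs per gene and cell barcode, 32286 genes in 3 libraries, each with the 3′ ends of RNA sequenced after droplet capture, per the labels. The labels name both a SeekOne chip and 10x Genomics. Cell Ranger 2.1.1 and mm10 are named in the submitters' processing notes. The libraries held 45462817 UMIs over 17809 barcodes (WT GW5074), 34859676 over 11678 (KO DMSO) and 39180331 over 13504 (WT DMSO), and every barcode had at least 500 UMIs, so the authors had filtered barcodes before deposit. Libraries shared 119 barcodes (WT GW5074 and KO DMSO), 154 (WT GW5074 and WT DMSO) and 80 (KO DMSO and WT DMSO), none of them an interferon-state cell.

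Cells were filtered and gated as given above, and no doublet caller was run; an alternative left out the 5% of Lyz2-gated cells with the most UMIs. UMIs were summed over cells and scaled to CPM. Ratios have exact conditional binomial intervals, shares Clopper-Pearson intervals and levels exact Poisson intervals. A count of 0 is bounded by 3 counts. Gate genes and Lyz2 were left out of the genes compared. Gate, lists and members were chosen with earlier results of these data known.

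Named genes were, by a written rule, the 20 highest and 10 lowest by their least extreme library, up to 3 highest and 2 lowest of each list, Clec7a, the interferon genes and receptors, and the 5 highest and 5 lowest of each group comparison. The text gives part of these, and no sex-linked, predicted, mitochondrial or ribosomal gene, nor any gene of haemoglobin or an antigen receptor, could be named. GENCODE M21 held 32159 (99.6%) of the gene identifiers, and 84 of the 102 higher genes matched a RefSeq promoter window by gene identifier. Mx1, Mx2, Cxcl11, Oas1b, Mnda, Mb21d1 and Cd301b of the lists were not analysed here. Results of some list members are not reported here. Scripts used Python 3.11.15, numpy 2.4.6, scipy 1.17.1, pandas 2.3.3 and matplotlib 3.10.9, and were tested on simulated data.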

Additional observations from a re-analysis of the deposited data

Results flagged for a closer look

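The interferon gate was also met by cells outside the Lyz2 gate, which the comparisons do not use. In KO DMSO 40 of 3613 such cells met it (1.11%, exact interval 0.792 to 1.505) and in WT GW5074 13 of 5160 (0.252%, 0.134 to 0.430), against 43 of 8839 in WT DMSO (0.486%, 0.352 to 0.655). The KO DMSO share stood above that of WT DMSO with intervals apart, and the difference between pools was not tested. Of these cells, 10 of 13 in WT GW5074, 20 of 40 in KO DMSO and 24 of 43 in WT DMSO had at least 3 UMIs of migratory dendritic cell markers, and 4, 20 and 16 had at least 3 UMIs of monocyte-derived macrophage markers. Their median depths were 1802 UMIs in WT GW5074, 2927 in KO DMSO and 3013 in WT DMSO. Over all kept cells outside the Lyz2 gate, the median depth was 1542.5, 2231 and 1601 UMIs. A deeper cell passes the gate more easily, and the part of depth in these shares was not tested. Among cells outside the Lyz2 gate that did not meet the interferon gate, 4.16% in WT GW5074 and 7.08% in KO DMSO, against 47.9% in WT DMSO, had at least 3 UMIs of neutrophil markers.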

How the results depend on the processing

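No paired analysis was possible because each group has 1 library. The share of Lyz2-gated cells in the interferon state (main values 0.768% in WT GW5074, 0.710% in KO DMSO and 0.780% in WT DMSO) was 1.11% and 0.984% in WT GW5074 and KO DMSO with a gate of 3 UMIs, and 0.459%, 0.411% and 0.542% in the 3 libraries with a gate of 8. Thinned to 1000 UMIs under the same gate it was 0.160%, 0.130% and 0.183%, thinned to 2000 UMIs 0.497%, 0.465% and 0.314%, and thinned to 1000 with 3 UMIs of 2 genes 0.462%, 0.454% and 0.457%. Of all kept cells it was 0.545%, 0.490% and 0.268%, and without cells carrying markers of other cell types 0.547% in WT DMSO. The share of interferon-state cells with more resident marker UMIs was 17.5%, 49.1% and 38.9% without Apoe and Spp1, and 30.6% in WT DMSO without the most abundant marker of each list. The 102 higher genes became 65 with a minimum of 100 CPM, all among the 102, and 99 to 135 under the other alternatives, with 86 of the 102 kept when cells carrying markers of other cell types were left out. Genes lower in all libraries, 0 as reported, numbered 7 with mean CPM per cell, 4 with a gate of 8 UMIs, 3 without the deepest 5% of cells, 1 without cells carrying markers of other cell types, and 12, 12 and 7 without the WT GW5074, KO DMSO or WT DMSO library. Genes called between groups numbered 64 for WT GW5074 and 67 for KO DMSO in the main comparison. They numbered 21 and 22 in resident-leaning cells alone, where fewer cells were summed. There the log2 ratio of Ms4a7 in WT GW5074 was -0.60, a value set in part by the class, since Ms4a7 is among the markers that define it. The alternatives with 2000 UMIs, 3 UMIs of 2 genes, 20 UMIs, cells of other types, single libraries left out and lists without Apoe and Spp1 were chosen after seeing the data. WT DMSO gave 36 interferon-state cells and 208995 UMIs, against 391302 UMIs in WT GW5074 and 218814 in KO DMSO, so small differences at low genes were not detectable.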
